A study of Mus musculus with 6 samples.

Results

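The genes described here are 45 genes of mitosis and of the G2/M transition, the step from the second gap phase of the cell cycle into division. They are cyclins and their kinase, mitotic kinases, checkpoint proteins, and parts of the kinetochore, the spindle and the machinery of cytokinesis, with mitotic kinesins other than Cenpe left out. They were matched by name to a hand-written list, drawn up with earlier results of these data known, and 45 of the 22162 genes in the table matched. Of these, 44 were among the 11877 genes tested, which reached 16.2 normalized counts (1 c.p.m.) in 3 or more libraries. Spc24 did not reach it.

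Poly(A) RNA was sequenced from mouse skin fibroblasts (MSFs), a line grown from the dorsal skin of a FASST mouse of the FVB/N strain. In FASST mice a Cre-ERT2 recombinase driven by the pro-alpha 2(I) collagen promoter is activated by tamoxifen (TAM) and removes a stop cassette in front of a p27Kip1 transgene with IRES-GFP at the ROSA26 locus. All 6 samples came from cells with these alleles, kept at 3% oxygen. The 3 TAM samples received 10 µM tamoxifen for 48 h and were labelled senescent, and the 3 EtOH samples received the ethanol vehicle and were labelled non-senescent. Cells without the transgene that received tamoxifen were not analysed here, so the effect of the drug and that of p27Kip1 cannot be told apart. The labels number the samples 1 to 3 in each group, and TAM 1 is compared with EtOH 1, and so on. The labels do not say that the samples were separate cultures, so p-values measure the spread between these samples, which may be technical.

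Mitosis is run by cyclin B bound to the kinase Cdk1, which is switched on by Cdc25 phosphatases and assisted by the Polo and Aurora kinases. Chromosomes attach to the spindle through kinetochores, unattached kinetochores hold the spindle checkpoint, and its release lets the anaphase-promoting complex destroy securin and cyclin B. Most of these genes are transcribed in G2 and mitosis, through the factor Foxm1 and promoter elements named the cell cycle genes homology region (CHR) and the CCAAT box, and are low in resting cells. The protein p27Kip1, encoded by Cdkn1b, binds and inhibits cyclin-dependent kinases, and lasting withdrawal from the cycle is a defining property of senescence. In a bulk sample, fewer dividing cells and less RNA per dividing cell cannot be told apart.

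RefSeq promoter windows (GRCm38.p6, the first listed window of each gene, from 250 bases before to 50 bases after the start) were found for 37 of the 45 genes. No window was matched for Foxm1, Tpx2, Dlgap5, Aurkb, Spc24, Incenp, Ccna2 and Cdc25c. The CHR sequence TTTGAA stood on either strand in 25 of the 37 windows (67.57%), against 18.11% of 27025 promoters of the same length. CCAAT stood in 29 of the 37 (78.38%, against 37.92%) and at least 2 copies in 21 (56.76%, against 12.16%). Both motifs stood in 23 windows (62.16%, against 7.12%). A match is a string of letters and not a bound site. Printed here are 6 promoters, from 200 bases before the start up to the start, with both motifs in capitals on whichever strand they were found (TTCAAA and ATTGG are the other strand). Cdk1, Ccnb2 and Mki67 stand for the core of the programme, Ckap2 and Cdc25b had the smallest p-values between TAM and EtOH, and Bub3 varied least between libraries.
Cdk1, chr10:69352913-69353112, minus strand: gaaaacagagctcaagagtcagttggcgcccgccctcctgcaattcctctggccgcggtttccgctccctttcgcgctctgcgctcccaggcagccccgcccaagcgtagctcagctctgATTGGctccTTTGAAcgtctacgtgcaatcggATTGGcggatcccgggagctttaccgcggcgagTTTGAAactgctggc
Ccnb2, chr9:70421555-70421754, minus strand: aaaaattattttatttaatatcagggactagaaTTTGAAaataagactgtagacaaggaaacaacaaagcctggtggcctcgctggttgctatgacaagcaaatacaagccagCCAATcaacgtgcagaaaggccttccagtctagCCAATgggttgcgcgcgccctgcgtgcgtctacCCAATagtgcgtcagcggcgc
Mki67, chr7:135716380-135716579, minus strand: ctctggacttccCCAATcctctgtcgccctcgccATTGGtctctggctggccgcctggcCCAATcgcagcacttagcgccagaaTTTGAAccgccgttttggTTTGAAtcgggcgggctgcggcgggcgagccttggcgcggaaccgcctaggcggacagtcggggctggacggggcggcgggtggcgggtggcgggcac
Ckap2, chr8:22185820-22186019, minus strand: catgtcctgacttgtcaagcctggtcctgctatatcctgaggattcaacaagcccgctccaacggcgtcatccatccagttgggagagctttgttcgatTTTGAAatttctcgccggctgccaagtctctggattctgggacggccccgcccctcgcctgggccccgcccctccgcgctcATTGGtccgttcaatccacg
Cdc25b, chr2:131186748-131186947, plus strand: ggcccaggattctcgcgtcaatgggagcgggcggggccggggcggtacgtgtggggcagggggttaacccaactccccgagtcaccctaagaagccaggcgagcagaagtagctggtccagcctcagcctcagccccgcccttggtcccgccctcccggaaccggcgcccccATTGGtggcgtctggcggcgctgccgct
Bub3, chr7:131560170-131560369, plus strand: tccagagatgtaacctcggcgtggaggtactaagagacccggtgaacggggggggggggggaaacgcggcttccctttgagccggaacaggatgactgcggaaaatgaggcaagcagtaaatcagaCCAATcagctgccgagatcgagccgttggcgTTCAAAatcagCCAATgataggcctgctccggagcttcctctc
The Cdk1 promoter holds TTTGAA with its first base at -71 and -15 from the start, each a short way downstream of a CCAAT box on the other strand, at -80 and -48. Ccnb2 carries 3 CCAAT boxes, at -87, -54 and -21, and its second TTTGAA, at 4, lies just past the printed stretch. Mki67 has TTTGAA at -116 and -98 below 3 CCAAT boxes, Ckap2 has 1 of each, and Cdc25b has 1 CCAAT and no TTTGAA. Bub3, the steadiest gene, holds both motifs as well.

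Library sums were between 14952367 and 17314953 normalized counts, and read totals behind the values are not known. Cdkn1b was at 1427, 3074 and 1853 normalized counts in EtOH 1, 2 and 3 and at 1699, 1520 and 1630.0 in TAM 1, 2 and 3, so it did not separate the groups. Whether RNA of the p27Kip1 transgene would be counted as Cdkn1b was not checked, so these values do not show whether the transgene was active. The paper reported GFP expression and growth arrest after tamoxifen in MSFs from FASST mice. TAM and EtOH are used here as the labels give them. All 10 fibroblast markers, among them Col1a1, Col1a2 and Col3a1, were detected, with a summed level of 1576727 to 1726493 normalized counts in EtOH and 764700 to 1214120 in TAM. Col1a1, Col1a2 and Col3a1 made up most of these sums. TAM was lower in 3 of 3 pairs for 7 of the 10 (70%, against 23.6% of all genes). It was higher in 3 of 3 for 2, Thy1 and Fbln2 (20%, against 18.3%). Log2 fold changes ran from -2.38 for Lum and -2.37 for Dcn to 0.70 for Fbln2 and 1.36 for Thy1, and 0 were called. The macrophage genes Emr1, C1qa and C1qb and the keratinocyte gene Krt1 were listed at 0 in all 6 libraries. Of the 9 macrophage markers 4 were tested. TAM was higher in 3 of 3 pairs for 3 of these, Csf1r, Cd14 and Lyz2 (75%, against 18.3% of all genes), while Cd68 had a log2 fold change of -0.59. Lyz2 was at 46.8, 35.3 and 62.9 in EtOH and at 103, 143 and 159 in TAM. Its log2 fold change was 1.48 (SE 0.32, adjusted p = 0.141, limma). The summed level of the 6 endothelial markers was 85.8 to 241 in EtOH and 15.7 to 35.1 in TAM. The difference was mainly that of Kdr, at 205, 68.7 and 116 in EtOH and 4.84, 7.53 and 14.0 in TAM (adjusted p = 0.0608, and 0.0488 with the replicate block, limma), while Pecam1 and Cdh5 were at 11.3 or less in every library. The sum of the 6 melanocyte markers was 134 to 255 and 141 to 190.1, and that of the 8 keratinocyte markers 68.7 to 87.0 and 60.2 to 83.0. Krt10, at 40.99 to 59.12, made up most of the keratinocyte sum, and single markers differed in opposite directions. Trp63 was at 25.12, 25.78 and 24.85 in EtOH and at 7.15, 2.50 and 6.87 in TAM (log2 fold change -2.11, adjusted p = 0.187, limma). Krt5, not tested, was at 0.64, 0 and 0 in EtOH and at 2.96, 7.53 and 13.39 in TAM.

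No mitosis or G2/M gene passed the test between TAM and EtOH. At an adjusted p under 0.05 (limma, adjusted over all 11877 genes tested), 0 of 44 were called, against 0.244% of all genes, which were 20 higher and 9 lower. With the replicate number as a block, 0 of 44 were called again, against 1.62% of all genes. At an unadjusted p under 0.05 in the limma model, Ckap2 was higher in TAM (1 of 44, against 6.67% of all genes) and Cdc25b lower (1 of 44, against 6.7%). The same 2 genes were found at that level with the block, where the shares over all genes were 8.64% and 8.32%. The 3 TAM libraries lay above the 3 EtOH libraries in 0 of 44 genes (9.19% of all genes) and below them in 0 of 44 (11.4%). The median log2 fold change was 0.05, with 26 genes above 0 and 18 below, and that over all genes was -0.03.

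The summed level differed far more between replicate numbers than between treatments. EtOH 1, 2 and 3 held 3294, 7941 and 4969 normalized counts over the 45 genes, and TAM 1, 2 and 3 held 4270, 9207 and 3233. The replicate 2 libraries were the highest of each group, and TAM 1 lay above EtOH 1 while TAM 3 lay below EtOH 3. On the log2 scale, the mean over the genes was 5.26, 6.97 and 6.25 in EtOH and 5.93, 7.14 and 5.46 in TAM, so the group means were 6.16 ± 0.857 and 6.17 ± 0.865 (SD, n = 3 each) and differed by 0.013.

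**Figure D1:**
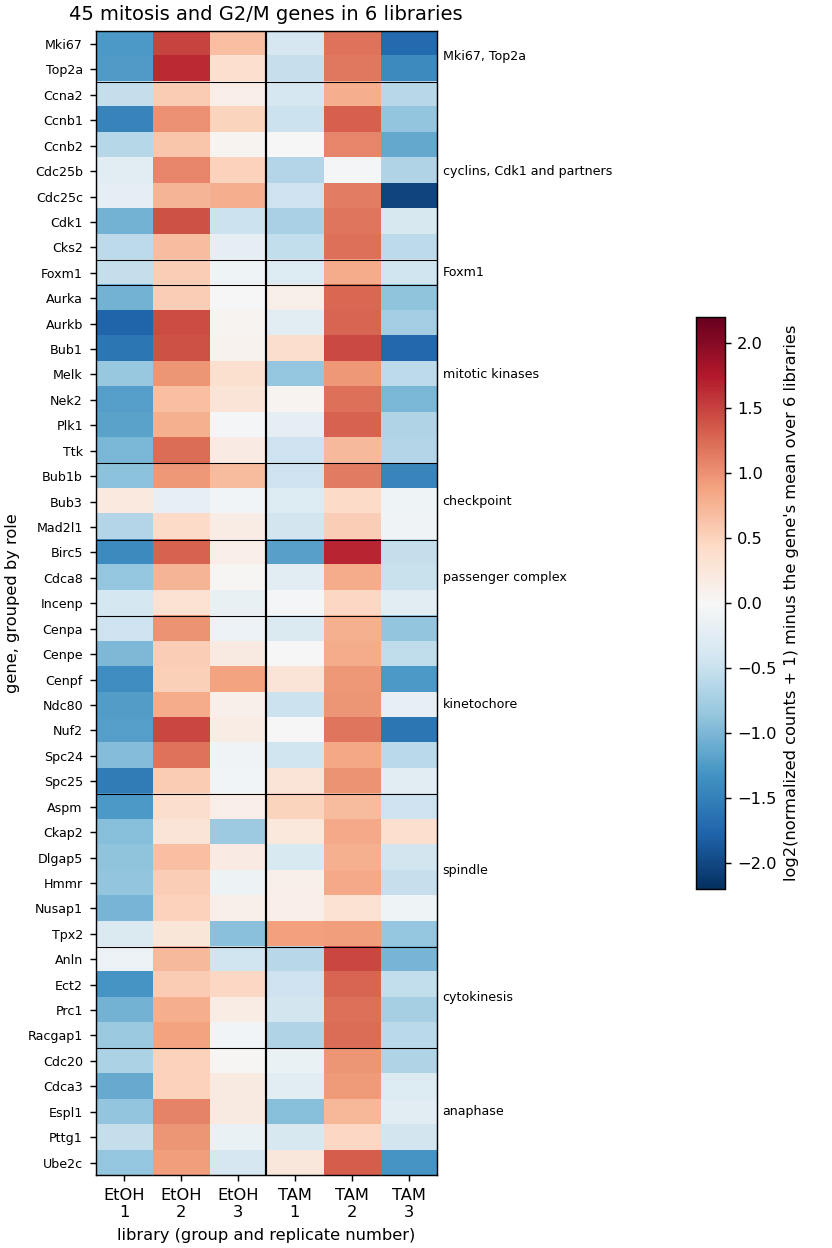
Heat map of the 45 genes (rows, grouped by role) in the 6 libraries (columns), as log2(normalized counts + 1) minus the mean of the gene over the 6 libraries. EtOH 2 and TAM 2 are red for nearly every gene, EtOH 1 and TAM 3 are mostly blue, and Bub3 is pale throughout.

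Gene by gene, 44 of 44 were higher on average in the 2 libraries numbered 2 than in those numbered 1, with a median difference of 1.40 on the log2 scale, and this holds for 51.9% of all genes. In 37 of 44 genes (84.1%) each of the 2 replicate 2 libraries lay above each of the other 4, against 12.6% of all genes. The exceptions were Bub3, Cenpf, Tpx2, Aspm, Ckap2, Cdc25b and Cdc25c. The highest value of a gene was in TAM 2 for 32 of the 45 genes and in EtOH 2 for 13, and the lowest was in EtOH 1 for 29 and in TAM 3 for 12. A moderated F test of the replicate number gave an unadjusted p under 0.05 for 21 of 44 genes (47.7%), against 12.2% of all genes, and 0 of 44 at an adjusted p under 0.05, against 0% of all genes. Cdk1 had the smallest of these p-values, 0.0008 (adjusted p = 0.174, limma). The F test and the count for replicate 2 were chosen after the values of these genes had been seen.

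The summed level of 9 macrophage markers was also highest in the libraries numbered 2, at 528 normalized counts in EtOH 2 and 548 in TAM 2, against 202 and 265 in EtOH 1 and 3 and 367 and 434 in TAM 1 and 3. Single genes made up these sums: Cd68 was at 52.1, 352 and 97.4 in EtOH and at 49.6, 90.5 and 116 in TAM, and Csf1r at 75.7, 73.4 and 74.3 in EtOH and at 113, 226 and 90.6 in TAM. Lyz2 was lowest in EtOH 2 and highest in TAM 3, Cd14 was highest in TAM 1, and Emr1, C1qa and C1qb were at 0. So the markers did not share the pattern as a group, and their part in the result was not tested.

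The spread within groups was wide beside that of other genes. The median SD within groups was 0.914 on the log2 scale for the 44 genes and 0.323 for all genes, or 0.347 for the 8030 genes in the same range of levels. With the replicate block it was 0.508 for the 44 genes and 0.264 for all genes, and it was smaller with the block than without for 40 of the 44. The median SE of a log2 fold change was 0.614 without the block and 0.362 with it. Without the block, the 95% confidence interval reached past a 1 log2 difference in both directions for 31 genes and stayed within 1 log2 for 3. With the block these counts were 7 and 15. A difference of up to 1 log2 was therefore not resolved for most of the genes.

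**Figure D2:**
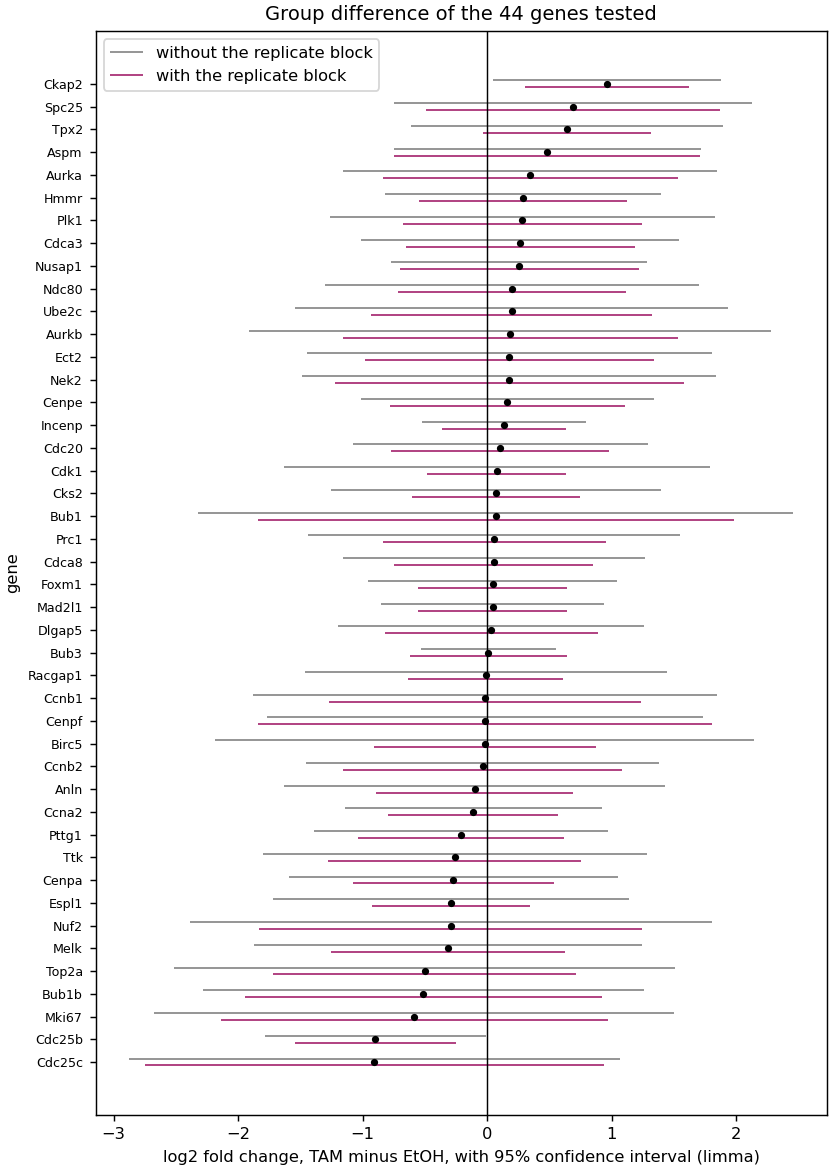
Log2 fold change of TAM minus EtOH for the 44 genes tested (points), with 95% confidence intervals from limma without the replicate block (grey) and with it (purple). The intervals of Ckap2 and Cdc25b leave out 0, and those of the other 42 genes include it without the block.

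The direction of the difference turned with the pair. TAM was higher than EtOH in 38 of 44 genes in pair 1 (45.2% of all genes), in 32 of 44 in pair 2 (50%) and in 3 of 44 in pair 3 (44.2%), which were Cdk1, Tpx2 and Ckap2. In 35 of 44 genes (79.5%) TAM was higher in pair 1 and lower in pair 3, against 15.2% of all genes. The median differences over the 45 genes were 0.63, 0.27 and -0.66 on the log2 scale in pairs 1, 2 and 3, while the medians over all genes were -0.05, 0.001 and -0.05. A difference above 1 log2 was seen for 12 genes in pair 1, 0 in pair 2 and 1 in pair 3, and one below -1 for 0, 1 and 12 genes. TAM was higher in 3 of 3 pairs for Tpx2 and Ckap2 (2 of 44, against 18.3% of all genes) and lower in 3 of 3 for Espl1, Cdc25b and Melk (3 of 44, against 23.6%).

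**Figure D3:**
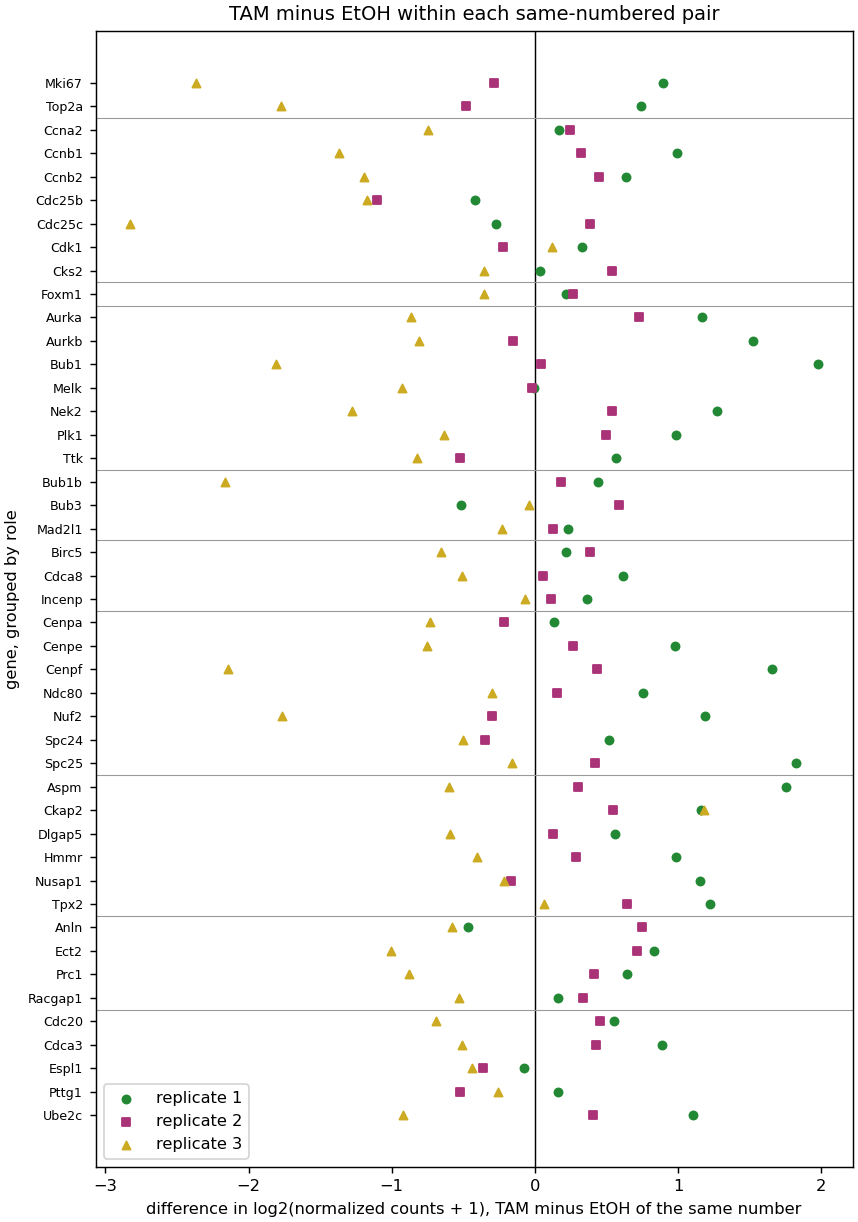
Difference in log2(normalized counts + 1), TAM minus EtOH, of each of the 45 genes in pair 1 (circles), pair 2 (squares) and pair 3 (triangles). Most circles lie right of 0 (39 of 45) and most triangles left of it (42 of 45).

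The sign of the group difference turned with the removal of some single libraries and not of others. Without EtOH 1, 4 genes were above 0 and 40 below, and without TAM 2, 5 were above and 38 below. Without EtOH 2, 40 were above 0 and 3 below, and without TAM 3, 38 were above and 6 below. Without EtOH 3 (26 above, 17 below) and without TAM 1 (32 above, 12 below) most genes were above 0, as with all 6 libraries (26 and 18). Scaling to equal library sums gave 32 above and 12 below, and quantile normalization 15 above and 29 below. Weighting the libraries gave 13 above and 31 below.

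Mki67, which encodes the proliferation antigen Ki-67 (mm9 chr7:142881471-142908062, minus strand, 14 exon blocks), was at 106, 713 and 403 normalized counts in EtOH 1, 2 and 3 and at 198, 585 and 77.4 in TAM 1, 2 and 3. Top2a, the topoisomerase that untangles sister chromatids, was at 88.8, 661 and 274 in EtOH and at 149, 474 and 79.5 in TAM. Both genes were highest in the replicate 2 libraries, and their lowest values were in TAM 3 and EtOH 1, so the groups overlapped. The Mki67 value in EtOH 2 was 6.72 times that in EtOH 1, and its value in TAM 2 was 7.56 times that in TAM 3. The log2 fold changes of TAM against EtOH were -0.58 for Mki67 (SE 0.89, 95% confidence interval -2.67 to 1.50, adjusted p = 0.822, limma) and -0.50 for Top2a (SE 0.86, -2.52 to 1.51, adjusted p = 0.844). In the pairs Mki67 differed by 0.90, -0.28 and -2.37 and Top2a by 0.74, -0.48 and -1.77 on the log2 scale.

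Cdk1, the kinase that drives entry into mitosis (mm9 chr10:68799383-68815686, minus strand), was at 70.1, 384 and 103 normalized counts in EtOH and at 88.2, 330.1 and 113 in TAM. Within each number its TAM and EtOH values lay close together, with pair differences of 0.33, -0.22 and 0.12, while EtOH 2 was 5.49 times EtOH 1 and TAM 2 was 2.93 times TAM 3. Its log2 fold change was 0.08 (SE 0.73, 95% confidence interval -1.63 to 1.79), and the interval was -0.48 to 0.63 with the replicate block. Ccnb1, cyclin B1, was at 24.7, 141 and 99.1 in EtOH and at 50.2, 177 and 37.7 in TAM, with a log2 fold change of -0.02 (SE 0.79) made up of pair differences of 1.00, 0.32 and -1.37. Of the Ccnb1 transcript, 83.1% matched other places in the genome at 95% identity or more, so its counts may be shared with such copies. Ccnb2, cyclin B2, ran the same way, at 32.5, 78.2 and 53.0 in EtOH and 51.0, 107 and 22.6 in TAM. Ccna2, cyclin A2, and Cks2, a small subunit of Cdk complexes, differed less between libraries, up to 2.67 and 3.50 times, with log2 fold changes of -0.11 and 0.07. Cks2 shares 86.6% of its transcript with other places in the genome, and 14.6% of the exon bases of Ccna2 overlap Exosc9 on the other strand.

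The Cdc25 phosphatases remove the inhibitory phosphates from Cdk1, and both members had the lowest log2 fold changes. Cdc25b (mm9 chr2:131012685-131024233, plus strand) was at 97.5, 240.4 and 163 normalized counts in EtOH and at 72.6, 111 and 71.6 in TAM. TAM was lower in 3 of 3 pairs, by -0.42, -1.10 and -1.17, and the groups overlapped only through EtOH 1, which lay below TAM 2. Its log2 fold change of -0.90 (SE 0.38, 95% confidence interval -1.79 to -0.01) had an unadjusted p of 0.0479 and an adjusted p of 0.365 (limma), and an adjusted p of 0.186 with the replicate block, in a range of 0.101 to 0.943 over the alternatives. Cdc25c was at 11.5, 22.9 and 23.9 in EtOH and at 9.35, 30.2 and 2.50 in TAM. Its log2 fold change of -0.90 (SE 0.84) came mainly from pair 3, where it differed by -2.83, with differences of -0.27 and 0.38 in the other pairs. The value of 2.50 in TAM 3 is a few times the smallest value above 0 in that library, 0.36.

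Foxm1, the transcription factor of the G2/M programme, was at 90.4, 192 and 123 normalized counts in EtOH and at 105, 231 and 96.1 in TAM. As in most of the list, TAM 2 was highest and EtOH 1 lowest, here over a range of 2.56 times, with pair differences of 0.22, 0.27 and -0.35. Its log2 fold change was 0.05 (SE 0.42, 95% confidence interval -0.96 to 1.05).

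The mitotic kinases included 2 of the 3 genes with the widest range between libraries. Plk1, the Polo kinase of mitotic entry and spindle assembly, was at 30.2, 121 and 68.1 normalized counts in EtOH and at 60.7, 172 and 43.5 in TAM. Aurkb, the kinase of the chromosomal passenger complex, was at 7.50, 77.2 and 29.1 in EtOH and at 23.4, 69.5 and 16.1 in TAM. Bub1, a checkpoint kinase, was at 6.72, 61.0 and 23.8 in EtOH and at 29.4, 62.8 and 6.07 in TAM. Aurkb and Bub1 thus ranged over more than 10 times, 10.3 and 10.4, with lowest values of a few normalized counts in EtOH 1 or TAM 3. Bub1 had the largest pair 1 difference of the 45 genes, 1.98, and a pair 3 difference of -1.81, which left a log2 fold change of 0.07 (SE 1.02). The log2 fold change was 0.28 for Plk1 (SE 0.66, 95% confidence interval -1.26 to 1.83) and 0.19 for Aurkb (SE 0.89, -1.91 to 2.28). Aurka, the Aurora kinase of the spindle poles, Nek2, a centrosome kinase, and Ttk, the checkpoint kinase Mps1, were between 13.8 and 106 normalized counts, with log2 fold changes of 0.35, 0.18 and -0.26. Melk, a kinase whose level follows proliferation, was at 14.5, 53.4 and 34.4 in EtOH and 14.5, 52.8 and 17.6 in TAM. Its pair differences of -0.0028, -0.02 and -0.93 show that 2 of its 3 pairs were nearly level. Of the 7 kinases, 6 were higher in TAM in pair 1, 4 in pair 2 and 0 in pair 3.

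**Figure D4:**
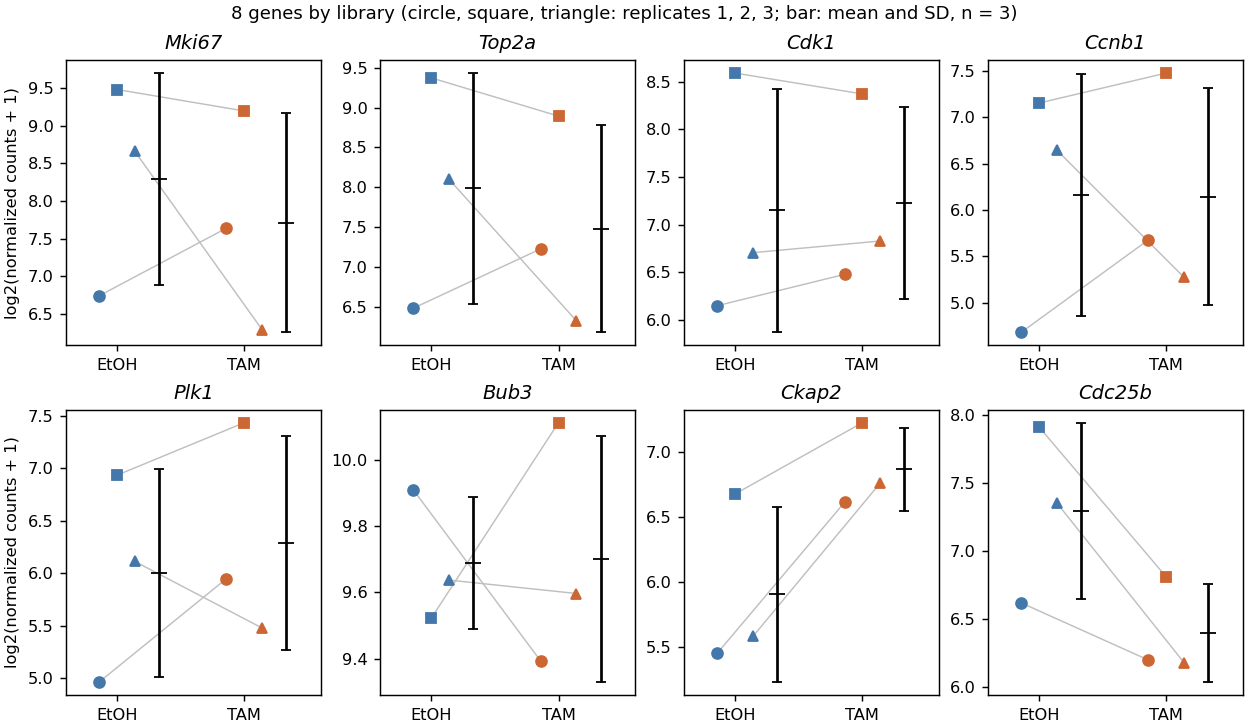
Log2(normalized counts + 1) of 8 genes in EtOH (blue) and TAM (orange), with circles, squares and triangles for replicates 1, 2 and 3, grey lines joining same-numbered libraries, and bars for the mean and SD of 3 libraries. Each panel has its own vertical axis. Ckap2 lines slope up and Cdc25b lines slope down in 3 of 3 pairs, while those of Mki67, Top2a, Ccnb1 and Plk1 cross.

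Among the checkpoint genes, Bub1b, which encodes BubR1, was at 31.7, 117 and 98.2 normalized counts in EtOH and at 43.5, 133 and 21.2 in TAM. Its log2 fold change was -0.51 (SE 0.75, 95% confidence interval -2.28 to 1.26), with pair differences of 0.44, 0.18 and -2.16. Bub3, the partner of Bub1 and BubR1, was at 960.5, 735 and 795 in EtOH and at 671, 1106 and 773 in TAM. Bub3 stood apart from the rest: it had the smallest range between libraries, 1.65 times, its lowest EtOH value in EtOH 2, and the highest level per kilobase of exon, 409 normalized counts, against 6.4 for Aspm, the lowest. Its log2 fold change was 0.01 (SE 0.23, 95% confidence interval -0.53 to 0.55), one of 3 intervals that stayed within 1 log2 without the block. Mad2l1, the checkpoint protein Mad2, was between 59.2 and 136 normalized counts, with a log2 fold change of 0.04 (SE 0.38).

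The chromosomal passenger complex senses faulty attachments of chromosomes to the spindle. Its subunit Birc5, survivin, was at 13.0, 89.7 and 39.7 normalized counts in EtOH and at 15.3, 117 and 24.8 in TAM. The 2 replicate 2 libraries were higher than the other 4, and the log2 fold change was -0.02 (SE 0.92), with an SE of 0.35 under the replicate block. Cdca8, borealin, was between 34.9 and 112 normalized counts. Incenp, the scaffold of the complex, was steadier, at 157, 260.4 and 184 in EtOH and 202, 282 and 175 in TAM, with a log2 fold change of 0.14 (SE 0.28, 95% confidence interval -0.52 to 0.80). For these 3 subunits TAM was higher in pairs 1 and 2 and lower in pair 3.

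Kinetochore genes gave pair medians of 0.98, 0.15 and -0.73 on the log2 scale. Cenpa, the histone H3 variant that marks the centromere, was at 29.4, 82.0 and 37.1 normalized counts in EtOH and at 32.4, 70.4 and 21.9 in TAM, with a log2 fold change of -0.27 (SE 0.56). Ndc80, which binds microtubules at the outer kinetochore, was at 12.2, 53.4 and 32.7 in EtOH and at 21.3, 59.5 and 26.3 in TAM, with a log2 fold change of 0.20 (SE 0.64). Nuf2, Spc24 and Spc25 are the other subunits of the Ndc80 complex. Spc25 was at 11.4, 52.4 and 33.5 in EtOH and 42.9, 70.4 and 29.9 in TAM, and its log2 fold change of 0.69 (SE 0.61, 95% confidence interval -0.74 to 2.13) was the second highest of the 44. It rested on pair 1, with pair differences of 1.82, 0.42 and -0.16. Nuf2 had a log2 fold change of -0.29 (SE 0.89), and Spc24, not tested, was at 6.73, 33.4 and 13.1 in EtOH and 10.1, 26.0 and 8.97 in TAM. Cenpf, a large kinetochore protein, was at 43.5, 164 and 212 in EtOH and 139, 222 and 47.1 in TAM. Here EtOH 3 lay above EtOH 2, so that Cenpf did not follow the replicate 2 pattern, and its pair differences ran from 1.65 to -2.14. Cenpe, a kinesin motor of the kinetochore, was between 59.1 and 209 normalized counts, with a log2 fold change of 0.16 (SE 0.50).

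The spindle genes held 3 of the 4 highest log2 fold changes, those of Ckap2, Tpx2 and Aspm, with a median of 0.39 over 6 genes. Ckap2, a microtubule-associated protein of the spindle (mm9 chr8:23278624-23296291, minus strand), was at 42.7, 101 and 46.8 normalized counts in EtOH and at 96.6, 148 and 107 in TAM. TAM was higher in 3 of 3 pairs, by 1.16, 0.55 and 1.18, and the groups overlapped through TAM 1, which lay just below EtOH 2. The log2 fold change of 0.96 (SE 0.39, 95% confidence interval 0.04 to 1.88) had an unadjusted p of 0.0421 and an adjusted p of 0.351 (limma), and an adjusted p of 0.170 with the replicate block. With library weights its adjusted p was 0.0358, in a range of 0.0358 to 0.938 over the alternatives. That fit called 1 of the 44 genes, against 6.25% of all genes, and no other alternative called one. At an unadjusted p under 0.05 it had 2 of 44 lower in TAM, Cdc25b and Cdc25c, against 13.2% of all genes. Tpx2, which activates Aurora A on spindle microtubules, was at 248, 372 and 163 in EtOH and at 579, 582 and 170.3 in TAM. The 2 high TAM values stood above the EtOH values and TAM 3 did not, with pair differences of 1.22, 0.65 and 0.06 and a log2 fold change of 0.64 (SE 0.53, 95% confidence interval -0.61 to 1.90). Aspm, Hmmr, Nusap1 and Dlgap5, which focus or bundle spindle microtubules, had log2 fold changes of 0.48, 0.29, 0.26 and 0.03, and each was lower in TAM in pair 3.

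In the 4 cytokinesis genes, both replicate 2 libraries lay above the other 4. Prc1, which bundles the midzone microtubules, was at 63.8, 233 and 149 normalized counts in EtOH and at 100.1, 310.0 and 80.3 in TAM, with a log2 fold change of 0.06 (SE 0.63, 95% confidence interval -1.44 to 1.55). Anln, anillin of the contractile ring, was at 270.4, 490.3 and 219.5 in EtOH and at 195, 825 and 147 in TAM, with the largest pair 2 difference of the list, 0.75. Racgap1 and Ect2, which direct RhoA to the cleavage plane, were 3.30 and 3.79 times as high in EtOH 2 as in EtOH 1, with log2 fold changes of -0.01 and 0.18. All 4 were higher in TAM in pair 2 and lower in pair 3.

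Anaphase is started by Cdc20, which activates the anaphase-promoting complex. Cdc20 was at 39.6, 92.5 and 66.3 normalized counts in EtOH and at 58.5, 127 and 40.7 in TAM, with a log2 fold change of 0.11 (SE 0.50, 95% confidence interval -1.08 to 1.29). Pttg1, securin, was at 21.7, 63.0 and 28.3 in EtOH and at 24.3, 43.6 and 23.5 in TAM, with a log2 fold change of -0.21 (SE 0.50). Espl1, the separase that securin holds in check, was at 35.7, 142 and 76.1 in EtOH and at 33.9, 111 and 55.8 in TAM. It was lower in TAM in 3 of 3 pairs, by -0.07, -0.36 and -0.44, with a log2 fold change of -0.29 (SE 0.61) and an adjusted p of 0.612 with the replicate block (limma). Ube2c, the ubiquitin-conjugating enzyme of the complex, and Cdca3, which helps degrade Wee1, had log2 fold changes of 0.20 and 0.27. Exons of Ube2c overlap Tnnc2 on the other strand over 22.8% of their bases, and whether counting used strand was not stated.

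Other genes of the same processes were compared from hand-written lists, in which 0 genes were called in either fit. Of 11 other mitotic kinesins, which move chromosomes and spindle poles, 10 were higher in TAM in pair 1, 9 in pair 2 and 0 in pair 3, with pair medians of 0.79, 0.31 and -1.01. None of the 11 had an unadjusted p under 0.05 between groups (limma). Of 34 genes of DNA replication and G1/S, 17, 19 and 8 were higher in TAM in pairs 1, 2 and 3, with a median log2 fold change of -0.24. For the replicate number, 19 of the 34 had an unadjusted p under 0.05 (limma F test). That compares with 21 of 44 mitosis and G2/M genes and 12.2% of all genes. The summed level of the 34 was also highest in the replicate 2 libraries, at 5086.5, 9892.2 and 6779.6 normalized counts in EtOH and 4888.9, 10155.2 and 5512.9 in TAM. Mcm7, a subunit of the replicative helicase, was the one at an unadjusted p under 0.05 between groups (1 of 34 lower in TAM, against 6.7% of all genes). It was at 587, 793 and 946 normalized counts in EtOH and 466, 426 and 586 in TAM (adjusted p = 0.303, limma). The 8 condensin subunits, which compact chromosomes, had a median of -0.43. Of these, Smc4 was at 787, 1036 and 1207 in EtOH and 507, 559 and 680 in TAM, groups that did not overlap, with a log2 fold change of -0.78 (SE 0.22, adjusted p = 0.212). The 3 TAM libraries lay below the 3 EtOH libraries in 11.4% of all genes.

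Subunits and partners of the anaphase-promoting complex had a median log2 fold change of -0.15 over 16 genes. Anapc5 (-0.49, SE 0.15) and Cdc26 (-0.41, SE 0.17) had an unadjusted p under 0.05, with adjusted p of 0.254 and 0.354 (limma). These were 2 of 16 lower in TAM, against 6.7% of all genes. The 35 other kinetochore genes tested had a median of -0.01 and 0 at an unadjusted p under 0.05. Among 23 other kinases and regulators (median -0.14), Cks1b, a partner of Cdk complexes like Cks2, was at 469, 390.2 and 455 normalized counts in EtOH and 175, 371 and 211 in TAM, with a log2 fold change of -0.86 (SE 0.30, adjusted p = 0.283). Among 21 other spindle and cytokinesis genes (median -0.09), Gtse1 and Psrc1 had an unadjusted p under 0.05 (2 of 21 higher in TAM, against 6.67% of all genes). TAM was higher in 3 of 3 pairs for 4 of the 21, which were these 2 with Tacc3 and Arhgap11a (19%, against 18.3% of all genes). It was lower in 3 of 3 for 4 (19%, against 23.6%). The latter count was 8 of 16 for subunits and partners of the anaphase-promoting complex (50%) and 4 of 8 for condensin (50%). For DNA replication it was 9 of 34 (26.5%) and for other kinetochore genes 6 of 35 (17.1%). For other kinases and regulators it was 4 of 23 (17.4%) and for mitotic kinesins 0 of 11. In the other direction, TAM was higher in 3 of 3 pairs for 6 of 34 DNA replication genes (17.6%) and 2 of 35 other kinetochore genes (5.71%). That count was 1 of 23 for other kinases and regulators (4.35%). It was 0 for condensin, for mitotic kinesins and for subunits and partners of the anaphase-promoting complex. Gtse1, which binds p53 and microtubules, was at 79.5, 115 and 54.8 in EtOH and 249, 268 and 301 in TAM, with a log2 fold change of 1.76 (SE 0.30), an adjusted p of 0.0915 and one of 0.0701 with the replicate block (limma). Psrc1, a p53 target that binds microtubules, was at 187, 191 and 50.3 in EtOH and 631, 272 and 443 in TAM (log2 fold change 1.79, SE 0.56, adjusted p = 0.256). The 6 inhibitors of cyclin-dependent kinases tested had a median log2 fold change of -0.53, with 1 above 0 and 5 below, from -0.32 for Cdkn1b to -1.35 for Cdkn1c, and 0 were called. TAM was lower in 3 of 3 pairs for 2 of the 6 (33.3%, against 23.6% of all genes). The Cdkn1c value rested on pair 2, with pair differences of 0.10, -4.35 and 0.19 (SE 0.84). Those of Cdkn1b were 0.25, -1.02 and -0.19. The one above 0, Cdkn1a, which encodes p21 and is a p53 target too, was at 3461, 3655 and 1718 in EtOH and 7410, 4300 and 7452 in TAM (log2 fold change 1.15, SE 0.36, adjusted p = 0.254). Its pair differences of 1.10, 0.23 and 2.12 were positive in 3 of 3 pairs.

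**Figure D5:**
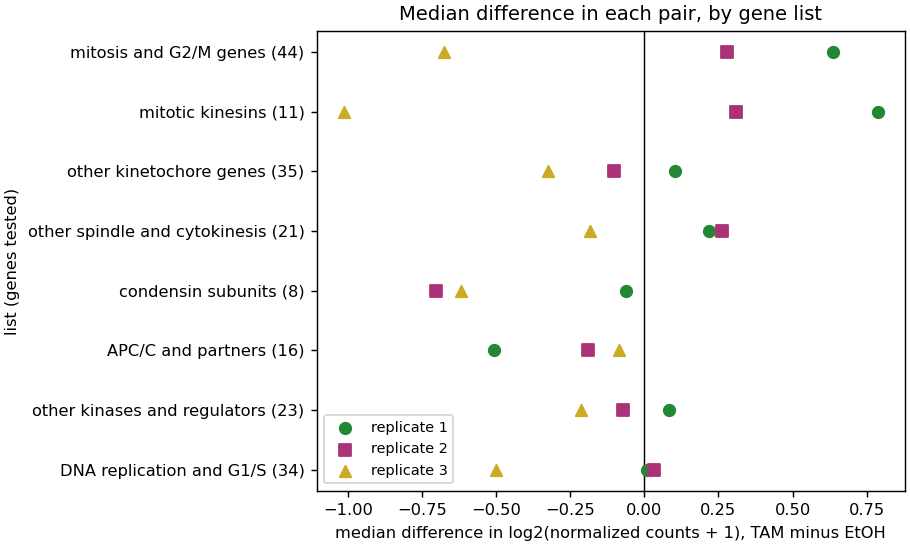
Median difference in log2(normalized counts + 1), TAM minus EtOH, over the tested genes of 8 lists in pair 1 (circles), pair 2 (squares) and pair 3 (triangles), with the number of genes in brackets. The 44 mitosis and G2/M genes and the 11 mitotic kinesins show the same order of pairs, from about -1 or -0.7 in pair 3 to 0.6 or 0.8 in pair 1. Other kinetochore genes (0.10, -0.10 and -0.32 in pairs 1, 2 and 3) and other kinases and regulators (0.08, -0.07 and -0.21) show that order over a smaller range.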

How the data were processed

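Reads had been aligned to mm9 with TopHat and assigned to genes with htseq-count, and the authors tested them in edgeR after TMM scaling (versions not given in the sources used here). The deposited signal is their normalized counts, which are not whole numbers and whose scaling is not stated, so no count model was run and counting error is unknown. Log2(value + 1) was fitted with limma 3.58.1 (R 4.3.3) with an intensity trend over 11877 genes, with Benjamini-Hochberg adjustment and a threshold of 0.05, and again with a block for the replicate number. The fit was also run on simulated data. Their spread was narrower and their changes larger than those of these genes, so that run does not cover them. Replicate numbers come from the labels. Deviations from group means correlated at 0.24, 0.29 and 0.42 over genes for equal numbers and at -0.31 to 0.04 for unequal ones, so equal numbers were taken as pairs. An exact permutation test of 3 against 3 cannot go below p = 0.1.

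The 45 genes, other lists, markers and tests were chosen with earlier results of these data known. Values in every library were due for 1 or 2 genes of each role, the 3 highest and 3 lowest log2 fold changes, and up to 3 genes with the smallest p in each other list. Others were added after their values were seen. Positions are from the mm9 annotation, and copies from BLAST 2.17.0 (at least 95% identity over 100 bases). Python 3.11.15, pandas 2.3.3 and matplotlib 3.10.9 were used. Alternatives were other scalings and filters, pseudocounts of 0.1 and 10, library weights, and leaving out libraries or pairs.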

Additional observations from a re-analysis of the deposited data

How the results depend on the processing

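The block with the replicate number changed no call: 0 genes of the list were called with or without it, and both fits gave 1 gene higher and 1 lower below 0.05 without adjustment. Library weights called 1 gene, Ckap2 (1.15 on the log2 scale), against 6.25% of all genes, and gave 2 lower at an unadjusted p under 0.05, against 13.2% of all genes. That lower count was 0 with equal library sums, median-ratio scaling or no filter. Equal sums also gave 1 gene with TAM above EtOH in every library, against 0 with the deposited values. In pair 3 they gave 5 of 45 higher, against 3. The shares over all genes, 9.19% and 44.2%, were taken with the deposited values only. Several log2 fold changes near 0 turned sign: Ccnb1 to 0.093 and Birc5 to 0.089 with equal sums, Ccnb1 to 0.0016 with median-ratio scaling, Aurkb to -0.14, Ndc80 to -0.013, Prc1 to -0.010 and Cdc20 to -0.031 with quantile normalization, and Foxm1 to -0.11, Prc1 to -0.23 and Cdc20 to -0.22 with library weights. The cause was not tested.

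With 1 library or 1 pair left out, shares over all genes at an unadjusted p under 0.05 were not taken. The count of listed genes at that level ranged from 0 to 1 for higher in TAM and from 0 to 3 for lower. It cannot be set against a background. Log2 fold changes then ranged from -1.36 to 0.31 for Mki67, -1.25 to 0.19 for Top2a, -0.35 to 0.33 for Foxm1, -0.50 to 0.80 for Cdk1, -0.76 to 0.66 for Ccnb1, -0.29 to 0.75 for Plk1, -0.65 to 0.95 for Aurkb, -1.21 to 0.31 for Bub1b, -0.86 to 0.62 for Birc5, -0.73 to 0.16 for Cenpa, -0.36 to 0.66 for Ndc80, -0.54 to 0.53 for Prc1, -0.35 to 0.50 for Cdc20 and -0.52 to 0.23 for Pttg1. The sign held for Ckap2 (0.74 to 1.35), Tpx2 (0.35 to 1.23), Spc25 (0.10 to 1.15) and Cdc25b (-1.24 to -0.59). It also held for Cdc25c (-1.23 to -0.12) in the fits that tested it. With 3 libraries a group and a spread this wide, a shared difference of the size seen in single pairs was not resolved.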
